A study of Mus musculus with 18 samples.

Results

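The genes described here encode the oxidative phosphorylation system of mouse cells, and they were chosen by name from the deposited gene tables. Members were the protein-coding genes whose symbols begin with Nduf (complex I), Sdha to Sdhd (complex II), Uqcr (complex III), Cox4 to Cox8 (complex IV) or Atp5 (complex V), together with the 13 protein-coding genes of the mitochondrial genome. Of the 46078 gene identifiers listed in each table, 106 were members, 93 encoded in the nucleus and 13 in the mitochondrion. A second identifier annotated for Atp5o was not analysed here.

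The respiratory chain passes electrons from NADH and succinate to oxygen through complexes I to IV, and ATP synthase (complex V) uses the proton gradient that this builds. Complexes I, III, IV and V are assembled from subunits of both genomes, whereas all subunits of complex II are nuclear. Mitochondrial genes are transcribed as long polycistronic RNAs from both strands of the circular genome, and the supply of subunits from both genomes has to be matched for assembly.

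RNA sequencing compared female mice with different numbers of Xist deletions, Xist being the long noncoding RNA that coats and silences 1 X chromosome in female cells. Controls carried the deletion on a single X chromosome and mutants on both, so by the sample labels every library came from cells with at least 1 deleted copy. The tables head the control columns WT; they were matched to the samples labelled as heterozygous controls by number, and the labels were followed. The groups were primary tail-tip fibroblasts (3 control and 3 mutant libraries, with no age given) and whole spleen, liver and brain at postnatal day 1 (2 control and 2 mutant libraries each). The text of the series names heart in place of brain; the samples and table are labelled brain, and in these libraries the summed signal of 6 neuron and glia markers was 5522 to 6505 and that of 6 heart muscle markers 7.92 to 14.9. The labels used here do not say which part of Xist was deleted, nor whether libraries of the same number came from the same litter.

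The files gave a normalised read value per gene, called signal here, in a separate table for each tissue. Signals were whole multiples of the value of 1 read, which lay between 0.0343 and 0.0751, and the 18 libraries held 12.4 to 29.2 M reads in genes. A gene with no read could still have had up to 3 reads, a signal of 0.103 to 0.225 (counting error only). Xist signal was 70.5 to 141 in control and 2.33 to 13.5 in mutant fibroblasts, 1121 to 1205 and 51.2 to 117 in spleen, 594 to 730 and 178 to 257 in liver, and 666 to 683 and 3.62 to 4.15 in brain. The groups did not overlap in any tissue, and Xist signal in mutants was lowest relative to controls in brain. The first spleen mutant stood apart, with reads in 32381 genes against 25166 to 26940 in the other 3 spleen libraries. In liver, the libraries numbered 1 had reads in 28889 (control) and 27207 (mutant) genes, and those numbered 2 in 23623 and 24307. In spleen the summed signal of 7 erythroid markers was 37094 and 19144 in controls and 15966 and 20226 in mutants, and that of 6 pancreas acinar markers 830 and 9.01 against 13.5 and 6505. In liver the erythroid sum was 21211 and 7098 in controls and 27446 and 11847 in mutants, with 6 hepatocyte markers at 72082 to 111733 in all 4 libraries. The defining markers of fibroblasts (20101 to 36009) were high in the libraries labelled so.

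Of the 13 mitochondrial genes, 5 were almost empty in all 18 libraries although their neighbours on the same polycistronic RNA were among the most abundant transcripts. mt-Co1, the catalytic core of cytochrome c oxidase, had 38855 to 201600 reads per library, whereas mt-Co2 and mt-Co3, the other core subunits of that enzyme, had at most 4 and 15 reads. mt-Atp6, the proton channel subunit of ATP synthase, had at most 4 reads, mt-Nd3 at most 10, and mt-Nd4l had 0 in every library. These 5 genes lie in the stretch of the mitochondrial genome that has a near-identical copy in the nucleus, on mouse chromosome 1 (GRCm38, minus strand). Of the 50-base windows of their transcripts (the read length of the study), 100% of mt-Co2, 99.9% of mt-Co3, 99.5% of mt-Atp6, 98.8% of mt-Nd4l and 98.0% of mt-Nd3 also occurred in an annotated transcript of another gene. For mt-Nd4 and mt-Co1 the share was 62.2% and 51.1%, for mt-Nd2 and mt-Nd5 8.19% and 7.61%, and for mt-Nd1, mt-Nd6, mt-Cytb and mt-Atp8 it was 0%.

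The sequences below show what a 50-base read from these genes has to be told apart by. The first 60 coding bases of mt-Co2 (chrM:7013-7072, plus strand) are the same in the annotated nuclear copy Gm28661 (chr1:24615506-24615565, minus strand). The first 60 of mt-Nd3 (chrM:9459-9518) differ at 1 base from Gm28438 (chr1:24613060-24613119), the only difference in 345 aligned bases. A stretch of mt-Co1 (chrM:6381-6440) is shown with Gm29216 (chr1:24616138-24616197), which differs at 6 of 492 aligned bases. Capitals mark the bases that differ between a gene and its copy, and all lines read 5′ to 3′ along the coding strand.
mt-Co2: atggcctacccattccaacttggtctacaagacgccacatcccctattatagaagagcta
mt-Nd3: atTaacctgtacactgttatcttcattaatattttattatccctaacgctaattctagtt
Gm28438: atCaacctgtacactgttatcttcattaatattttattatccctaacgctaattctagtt
mt-Co1: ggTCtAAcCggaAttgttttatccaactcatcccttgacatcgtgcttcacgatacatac
Gm29216: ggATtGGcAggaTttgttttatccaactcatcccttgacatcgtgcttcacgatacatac

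The gene mt-Atp8, a small membrane subunit of ATP synthase, did not follow the windows shared with annotated transcripts. It had 217 to 332 reads in each of the 6 fibroblast libraries and 0 reads in all 12 organ libraries, and none of its windows occurred in another annotated transcript. Genomic copies outside annotated transcripts were not searched. However, mt-Atp8 (chrM:7766-7969) lies between mt-Co2 and the start of mt-Atp6, both of which have copies in the same stretch of chromosome 1. Its share of 0% therefore does not show that it lacks a nuclear copy. The other 7 mitochondrial genes had at least 222 reads in every library, and these 7, with mt-Atp8 in fibroblasts, were the ones that could be compared. Reads of mt-Co1 made up 52.3% to 74.7% of all reads in the 13 genes.

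**Figure D1:**
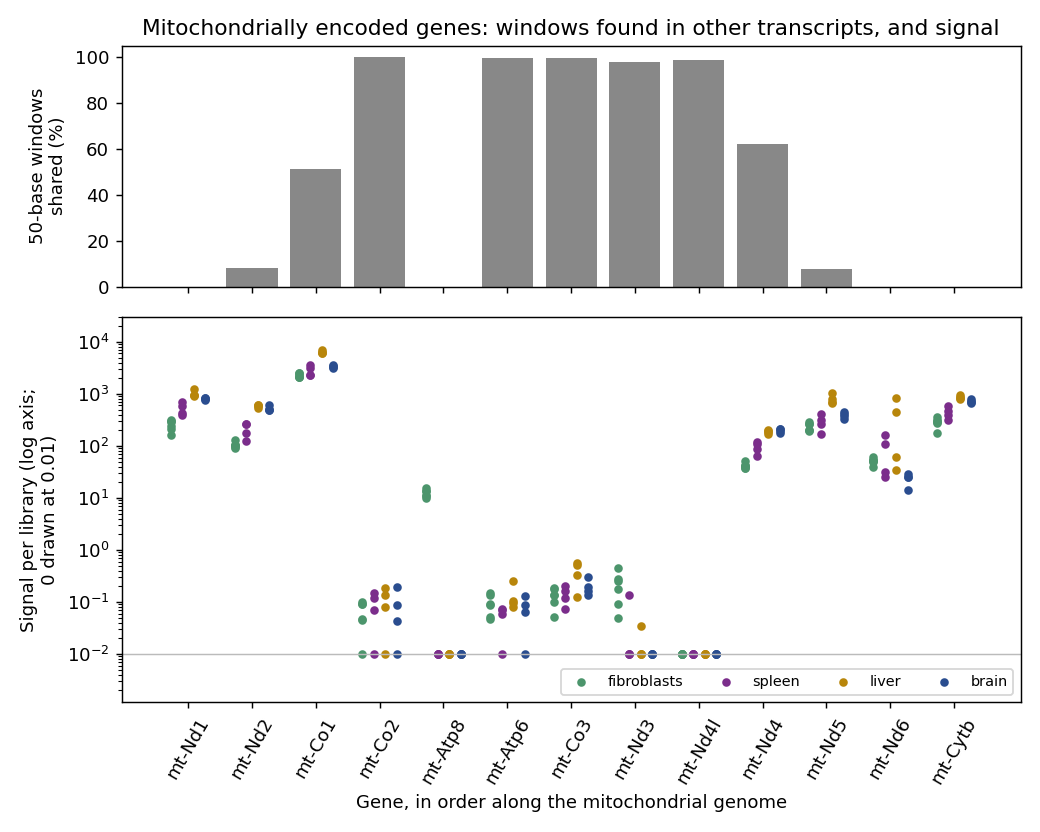
For each mitochondrially encoded gene, in its order on the mitochondrial genome, the upper panel gives the percent of 50-base windows found in another annotated transcript and the lower panel the signal of every library on a log axis, coloured by tissue. The 5 genes with 98.0% or more shared windows lie near 0 in every library, and mt-Atp8 has signal in fibroblasts only.

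Levels were compared between genes as reads per kilobase of transcript, scaled to the reads in genes of each library (RPKM), and the orders given here were the same with either of 2 definitions of length. The almost empty mt-Co2, mt-Co3, mt-Atp6, mt-Nd3 and mt-Nd4l could not be ranked, nor could mt-Atp8 in the organs. Among the other members, mt-Co1 was the most abundant per length in all 4 tissues. Its control mean RPKM was 1497 in fibroblasts, 1823 in spleen, 2222 in brain and 4040 in liver. Within complex I the most abundant of those ranked by control mean was mt-Nd1 (281, 510, 818 and 981 in the same order). In the first liver control mt-Nd6 lay above it (1614 against 930), but in the second far below (120 against 1032). Within complex III it was mt-Cytb, the cytochrome b subunit (269, 360, 597 and 725). The part of the shared windows of mt-Co1 (51.1%) and mt-Nd4 (62.2%) in these orders was not tested. Among nuclear members, Cox6a1, a regulatory subunit of cytochrome c oxidase, led complex IV in every tissue (385, 291, 322 and 458). Tables were normalised separately, so these cross-tissue levels rest on scaling each library to its reads in genes.

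Together the 93 nuclear members took 0.405% to 0.827% of the reads in genes and the 13 mitochondrial members 0.293% to 1.05%. The ratio of mitochondrial to nuclear member reads was 0.458 to 0.577 in fibroblasts, 0.755 to 1.43 in spleen, 1.21 to 1.40 in brain and 1.17 to 2.04 in liver. Fibroblasts lay below every organ library in this ratio. The almost empty mitochondrial genes added next to nothing to it. Its nuclear part includes members that were many times higher in fibroblasts than in the organs, as described further on. The ratio may therefore not be comparable between fibroblasts and organs, and the part of these genes in it was not tested. Control and mutant ranges overlapped in each tissue.

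Several subunits of cytochrome c oxidase and ATP synthase are encoded by alternative genes with tissue-restricted use, and for Cox4i, Cox6a, Cox7a and Cox8 the ubiquitous form had the higher level in all 4 tissues. Cox4i1 had a control mean of 182 ± 13.9 (SD, n = 3) RPKM in fibroblasts, against 2.67 ± 1.68 for Cox4i2, the form linked to low oxygen. The heart and skeletal muscle forms Cox6a2 and Cox7a1 had control means of at most 0.735 and 1.63 in any tissue, next to at least 291 for Cox6a1 and at least 52.4 for Cox7a2. Cox8b and Cox8c had no more than 3 reads in any library, and Cox7b2, a testis form, no more than 4. Cox6b2, the other form of Cox6b1, differed by tissue: its control mean was 85.6 ± 3.53 (SD, n = 2) in spleen and 97.5 ± 44.8 (SD, n = 2) in liver, but 13.3 ± 7.78 (SD, n = 3) in fibroblasts and 6.41 ± 2.48 (SD, n = 2) in brain. Among the genes of the ATP synthase c ring, Atp5g3 led in the organs, with control means of 122 in spleen, 247 in liver and 110 in brain, but in fibroblasts Atp5g3 (106) and Atp5g2 (104) differed by less than the spread between replicates and their order depended on the definition of length.

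Ndufa4l2, a hypoxia-responsive relative of the cytochrome c oxidase subunit Ndufa4, varied widely between replicates. Its RPKM levels in control fibroblasts were 434, 194 and 74.4, and in mutants 152, 230 and 222, so that the groups overlapped. Its control mean of 234 ± 183 (SD, n = 3) there was above the 112 ± 16.9 (SD, n = 3) of Ndufa4, by less than the spread between replicates, whereas in the organs Ndufa4 had the higher mean. In the liver controls it was 32.04 and 2.447 and in the mutants 12.99 and 2.387, which put the libraries numbered 1 above those numbered 2 in both groups. In brain it was 3.77 and 3.48 against 3.22 and 2.01.

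**Figure D2:**
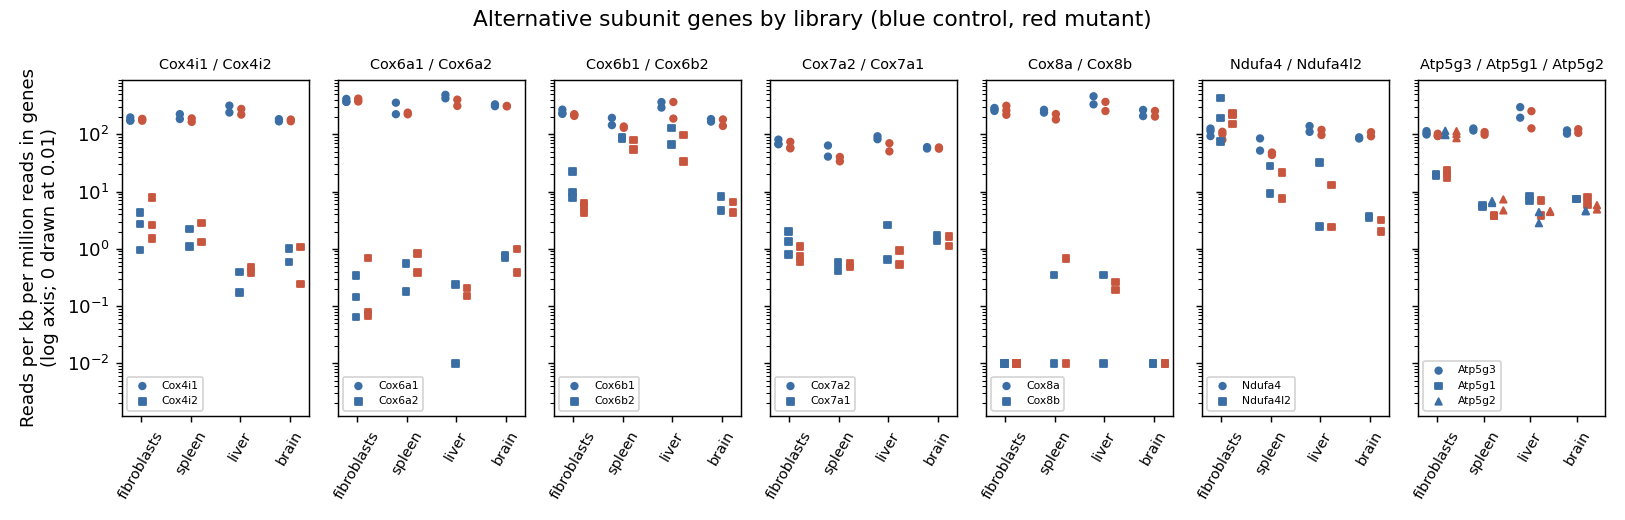
Each panel shows a set of alternative subunit genes, with RPKM on a log axis for every control (blue) and mutant (red) library of each tissue. The ubiquitous forms Cox4i1, Cox6a1, Cox7a2 and Cox8a lie far above their partners everywhere, Cox6b2 stays below Cox6b1 but is higher in spleen and liver than elsewhere, and Atp5g2 is high in fibroblasts only.

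A group of nuclear members was many times higher in the fibroblast table than in any organ table. Atp5l, a membrane subunit of ATP synthase, had a control mean RPKM of 151 in fibroblasts against 5.95 in spleen, 3.75 in liver and 3.27 in brain. Ndufs5, a complex I subunit, was at 34.1 against 1.77, 1.25 and 1.74, Atp5g2, which encodes the ATP synthase c ring, at 104 against 6.58, 3.60 and 4.57, and Ndufb4 at 25.4 against 1.53, 1.72 and 1.05. In all these genes part of the transcript sequence was shared with other genes (8.73% of windows for Atp5l, 21.7% for Ndufs5, 36.7% for Atp5g2 and 18.3% for Ndufb4). Over 89 nuclear members with reads in every tissue, the 21 that shared more than 5% of windows had a median fold of 2.84 between fibroblasts and the mean of the organs, and 16 of them exceeded 2-fold. The 46 members without shared windows had a median of 0.846, and 2 of them exceeded 2-fold (Ndufa4l2 and Cox4i2). The bins and these genes were chosen after the values were seen, and the part of the shared windows in this difference was not tested. No source used here says whether the fibroblast and organ tables were aligned and counted with the same settings, so levels set across them may not be comparable for these genes and for mt-Atp8. Mutants were compared with controls within each table only.

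No member passed the test in any tissue. With limma on log2 signal and Benjamini-Hochberg adjustment over all genes tested, 0 of 96 members were called in fibroblasts, 0 of 95 in spleen, 0 of 93 in liver and 0 of 94 in brain at an adjusted p of 0.05. The share of all tested genes called was 0.0% in fibroblasts, spleen and liver and 0.0237% in brain. DESeq2 and edgeR, run on the recovered reads, also called 0 members, against 0.0229%, 1.1%, 1.4% and 0.242% of all genes by DESeq2 and 0.0%, 0.0%, 0.0% and 0.0237% by edgeR, in the same order of tissues. At an unadjusted limma p under 0.05 there was 1 member in fibroblasts and 0 in each organ, against 0.971%, 6.27%, 6.67% and 4.07% of all genes. The unadjusted count was 1, 0, 0 and 1 with DESeq2, against 1.3%, 9.05%, 6.97% and 2.47% of all genes. With edgeR it was 1, 0, 4 and 1, against 1.02%, 7.11%, 6.89% and 3.99%. With 2 libraries a group in the organs, and with members that passed the minimum signal only, the values that follow are descriptions of these libraries.

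Members below the minimum mean signal of 1 in every tissue, and so not tested, were mt-Co2, mt-Co3, mt-Atp6, mt-Nd3, mt-Nd4l, Cox6a2, Cox7a1, Cox7b2, Cox8b and Cox8c. mt-Atp8 was not tested in the organs, Cox4i2 in liver and brain, and Ndufs5 in liver.

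In spleen, the nuclear members lay below the controls almost as a block. Of 88 tested, 81 had a negative log2 fold change, with a median of -0.36, against -0.07 over all genes tested, of which 56.5% were negative. In 25 both mutants lay below both controls, which is 28.4% against 21.9% of all genes, and in 2 both lay above, 2.27% against 18.3%. All 5 complexes were placed alike, with medians of -0.34 (36 subunits of complex I), -0.34 (4 of complex II), -0.37 (8 of complex III), -0.37 (13 of complex IV) and -0.42 (16 of complex V).

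By library the values were uneven. The median deviation of the nuclear members from the tissue mean, on the log2 scale, was 0.43 and -0.10 in the spleen controls and -0.30 and -0.04 in the mutants. The first control was the highest and the first mutant the lowest, while the libraries numbered 2 lay close together, with the mutant above the control by 0.06. Without the first control the median log2 fold change was -0.08, and without the second control -0.62. The first control also had the highest erythroid marker sum and the first mutant the lowest, and the first mutant is the library with reads in the most genes. The summed signal of 6 fibroblast markers was 1762 and 2085 in controls and 4748 and 2899 in mutants, and that of 6 lymphoid and stromal spleen markers 395 and 900 in controls and 487 and 655 in mutants. The part of these in the result was not tested. Tested protein-coding genes with under 1 kb of exon moved in the same order (0.33, -0.06, -0.35 and 0.07), as did 77 mitochondrial ribosome genes (0.43, -0.09, -0.25 and -0.07) and 82 cytosolic ribosome genes (0.36, -0.06, -0.37 and 0.01). The next longer bin of protein-coding genes kept this order (0.13, -0.01, -0.25 and 0.05). The bins above it did not (0.033, 0.0006, -0.153 and 0.035, then -0.05, -0.01, -0.04 and 0.004). In whole organs, fewer cells of a type and less RNA per cell cannot be told apart.

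Single members of spleen showed the same spread. Uqcr11, a small subunit of complex III, had signals of 23.6 and 13.8 in controls and 8.11 and 12.97 in mutants, a log2 fold change of -0.79 ± 0.39 (SE; limma, adjusted p = 0.779). Atp5g1, a c-ring gene of ATP synthase, had 16.0 and 14.8 against 9.46 and 10.2, a log2 fold change of -0.62 ± 0.29 (SE; limma, adjusted p = 0.779). The gap between groups was wider than the gap between replicates for Atp5g1, whereas for Uqcr11 most of the difference lay between the libraries numbered 1. Ndufs8 and Ndufv2, which hold iron-sulfur clusters of complex I, were at 57.2 and 42.5 against 26.7 and 38.4, and at 93.6 and 63.2 against 48.8 and 57.5. The only members with both mutants above both controls were Cox7a2l, a factor for supercomplexes of the chain (46.7 and 36.0 against 54.2 and 55.0), and Ndufv3, a complex I subunit (40.9 and 42.7 against 47.2 and 47.6).

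In liver, 79 of 86 tested nuclear members had a negative log2 fold change. The median was -0.24 while that of all genes tested was 0.05, and 44.1% of all genes were negative. In 20 members both mutants lay below both controls, 23.3% against 13.1% of all genes, and in 3 both lay above, 3.49% against 23.5%. The medians by complex were -0.30, -0.25, -0.16, -0.27 and -0.26 for complexes I to V. By library the median deviation was -0.08 and 0.32 in controls and -0.37 and 0.10 in mutants. The libraries numbered 2 were higher than those numbered 1 in both groups, and within each number the mutant lay below the control, by 0.29 for number 1 and 0.21 for number 2. Without the second control the median log2 fold change was -0.05, and without the first mutant -0.03. Of 280.0 tested protein-coding genes with under 1 kb of exon, 206.0 were negative with a median of -0.22, close to that of the members. Their library values were 0.16 and 0.02 in controls and -0.14 and -0.03 in mutants. Many members have more exon than this, and in successive bins of longer protein-coding genes the medians were -0.05, 0.01 and 0.09. Cytosolic ribosome genes, which moved with the members in spleen, had a median of 0.06 in liver, with 37.5% negative. The sum of fibroblast markers was 371 and 452 in controls and 608 and 522 in mutants. The erythroid sum was higher in the libraries numbered 1, and within each number higher in the mutant. The part of these in the result was not tested.

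Of the 5 members of liver with the smallest p, 3 were accessory subunits of complex I. Ndufa1, an X-linked membrane-arm subunit, had signals of 19.5 and 17.3 in controls and 12.1 and 13.3 in mutants, a log2 fold change of -0.52 ± 0.21 (SE; limma, adjusted p = 0.762). Both mutants lay well below both controls. Ndufa13 was at 42.04 and 47.52 against 30.45 and 33.84, Ndufa2 at 38.5 and 44.9 against 26.6 and 32.6, and Cox7a2, of complex IV, at 54.4 and 60.1 against 33.6 and 46.2. The largest falls without overlap were in Uqcr11 (24.7 and 36.3 against 15.1 and 24.1) and Atp5j2 of ATP synthase. Their log2 fold changes were -0.64 ± 0.33 and -0.59 ± 0.28 (SE; limma, adjusted p = 0.817 and 0.793). Against that direction, Ndufaf4, an assembly factor of complex I, was at 21.4 and 22.5 in controls and 28.3 and 35.2 in mutants, a log2 fold change of 0.51 ± 0.22 (SE; limma, adjusted p = 0.778). Cox7a2l (39.0 and 42.8 against 47.9 and 55.7) and Atp5g2 (1.65 and 2.53 against 2.62 and 2.68) were the other 2 with both mutants above both controls.

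In brain the nuclear members stayed near the other genes. The median log2 fold change was -0.04 over 87 tested members and -0.01 over all genes. Both mutants lay above both controls for 9 members (10.3%, against 13.8% of all genes) and below for 11 (12.6%, against 16.3%). By library the median deviation was -0.04 and 0.06 in controls and -0.10 and 0.05 in mutants, with overlap. The sum of 6 hepatocyte markers in brain was 140 and 766 in controls and 995 and 643 in mutants, and its part in any value was not tested. The largest differences among nuclear members without overlap were in Ndufa4l2 (3.60 and 3.22 against 2.97 and 1.87), Ndufb10 (45.2 and 36.6 against 33.8 and 33.4) and, in the other direction, Uqcrb of complex III (4.21 and 5.10 against 5.17 and 6.46). Uqcrb had only 77 to 145 reads per library and shared 25.4% of its windows with other genes.

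In fibroblasts, with 3 libraries a group, the nuclear members also lay near the other genes. The median log2 fold change of 88 nuclear members was -0.02, against -0.00 over all genes, and the per-library medians ran from -0.07 to 0.11 in controls and from -0.06 to 0.05 in mutants. In 2 members all mutants lay above all controls (2.27%, against 2.07% of all genes) and in 5 all lay below (5.68%, against 1.65%). The 2 higher ones were Ndufs7, an iron-sulfur subunit of complex I (36.0, 36.0 and 36.5 against 39.5, 40.4 and 40.6), and Atp5c1, the central stalk of ATP synthase (114, 119 and 113 against 121, 131 and 125). The lower ones were Cox6b2, Sdhc, Ndufaf1, Ndufc2 and Ndufa1.

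The member with the smallest p in fibroblasts was Cox6b2, with signals of 3.33, 4.34 and 9.84 in controls and 2.60, 2.62 and 1.82 in mutants. Its log2 fold change was -1.03 ± 0.39 (SE; limma, adjusted p = 1.00, unadjusted p = 0.0375), and the third control stood well above the other libraries. Sdhc, a membrane anchor of succinate dehydrogenase, was at 67.6, 72.7 and 79.5 against 62.7, 60.6 and 66.7. Ndufaf1, an assembly factor of complex I, was at 9.89, 9.12 and 9.30 against 7.38, 6.68 and 8.89. Ndufa12 of complex I, also among the 5 smallest p, had a log2 fold change of -0.25 ± 0.15 (SE), with overlap.

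**Figure D3:**
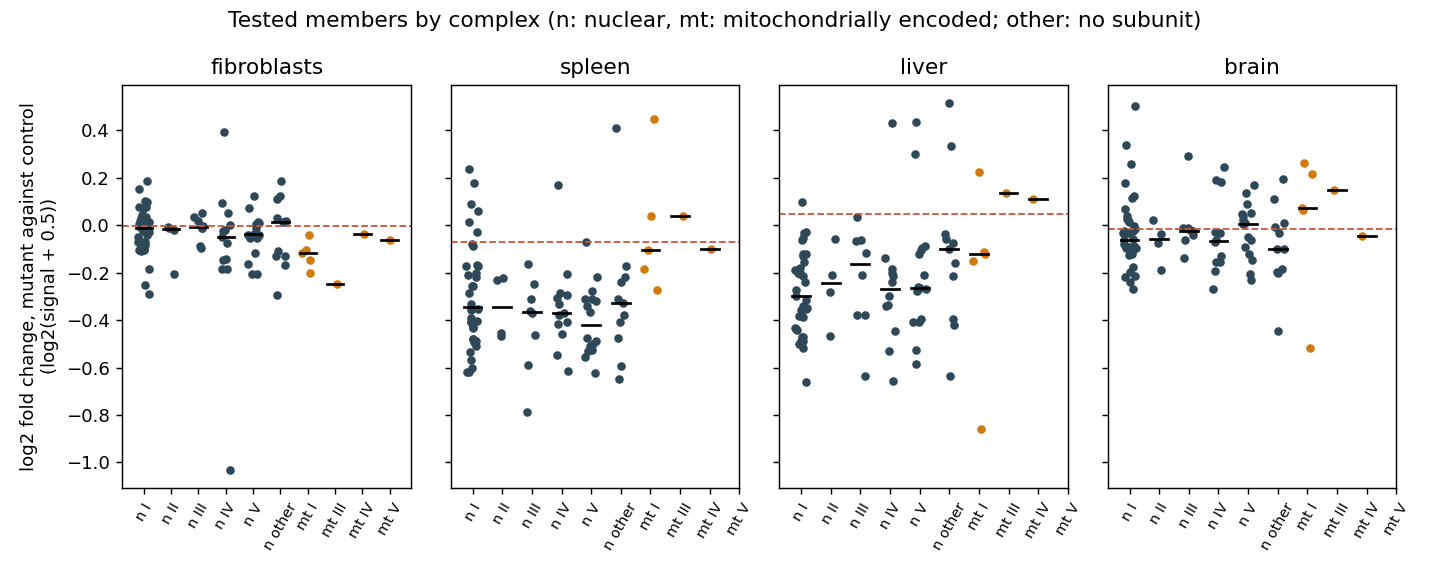
Points are the log2 fold changes (mutant against control) of the tested members in each tissue, grouped by complex and by genome, with black bars for group medians and a dashed line for the median of all tested genes. The nuclear groups lie below the dashed line in spleen and liver and around it in fibroblasts and brain.

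Few members kept a side over 3 tissues. Sdhc lay lower in mutants without overlap in fibroblasts, spleen (77.1 and 59.6 against 47.8 and 50.9) and brain (57.7 and 63.6 against 52.3 and 53.9). Its liver signals were 72.7 and 103 against 49.4 and 79.3, with overlap. Atp5mpl, a small subunit of ATP synthase, lay lower in spleen, liver and brain, and Cox7a2l lay higher in these 3 organs, in brain with 45.9 and 42.6 against 51.7 and 49.5. These 3 members were chosen after their values were seen. Of the 93 members tested in all tissues, 1.08% lay higher in 3 or more and 2.15% lower, against 1.88% and 1.16% of 11439 genes tested in all 4.

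**Figure D4:**
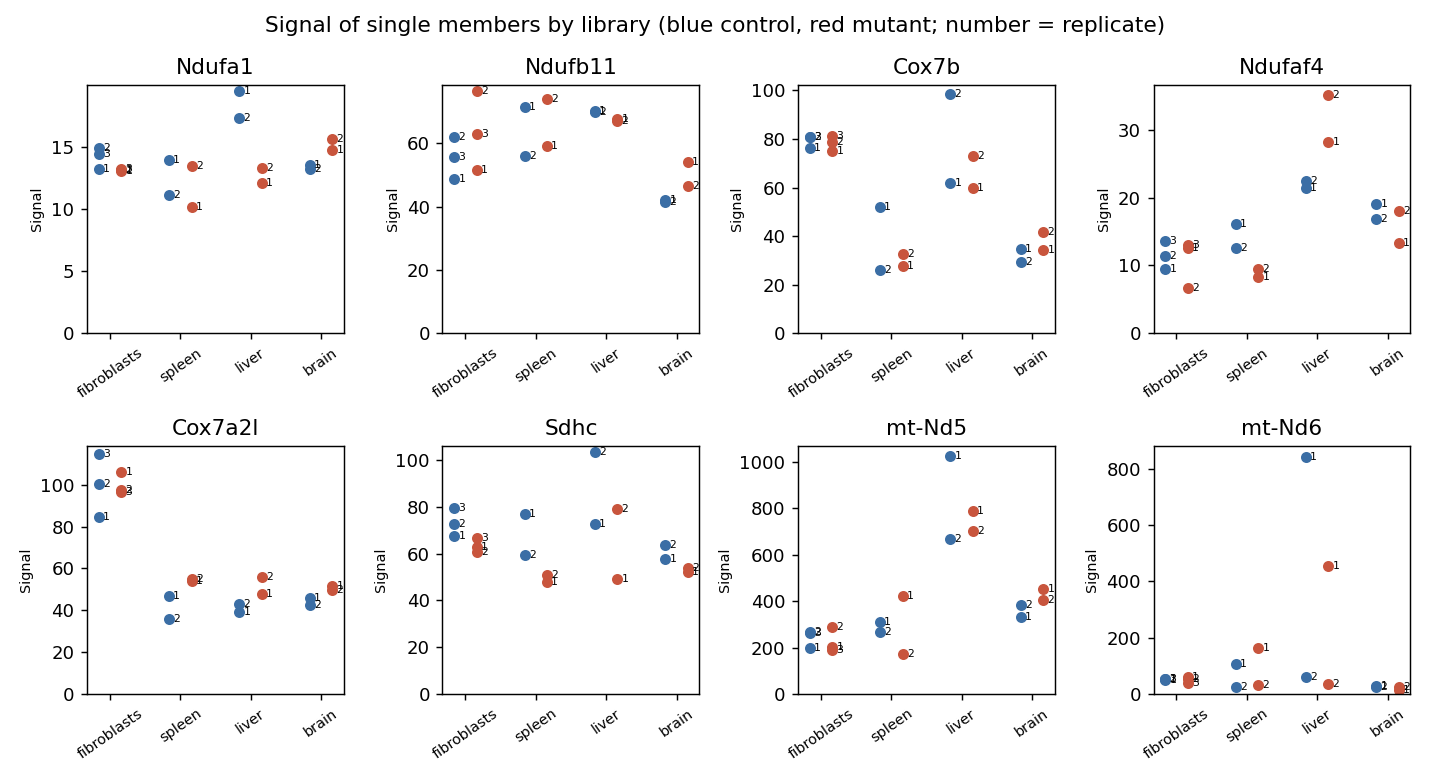
Signals of 8 members in every library, with controls in blue, mutants in red and the replicate number beside each point. Ndufa1 lies lower in liver mutants and higher in brain mutants, Ndufaf4 lower in spleen and higher in liver, and mt-Nd6 separates liver and spleen libraries by replicate number.

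The mitochondrial members were taken in the same way, and how they differed from the nuclear ones was described without a test. In spleen the median log2 fold change of the 7 tested was -0.10, and their per-library medians were 0.25 and -0.15 in controls and 0.44 and -0.52 in mutants, so that the libraries numbered 1 lay above those numbered 2 in both groups. The hepatocyte marker sum in spleen split the same way (284 and 10.1 in controls, 354 and 27.9 in mutants), as did that of 7 skeletal muscle markers (27.9 and 12.3, 54.4 and 9.11). The number of genes with reads in spleen also split by number, and the part of these was not tested. The first mutant, lowest for nuclear members, was the highest for mitochondrial ones. In liver the median was -0.11 and the per-library medians were 0.05, -0.05, 0.01 and -0.01, a range far narrower than that of the nuclear members. Single genes varied more than these medians, with mt-Nd6 signal between 34.0 and 840. In brain the median was 0.07, with -0.01 and -0.05 in controls and 0.09 and 0.04 in mutants. In fibroblasts all 8 tested were negative, with a median of -0.11, but the per-library values of -0.07, 0.00 and 0.19 in controls and 0.14, -0.02 and -0.29 in mutants overlapped, and the third mutant alone lay below all the others. Without the third mutant the median was 0.0062, and without the third control -0.03.

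The difference between the nuclear and the mitochondrial median log2 fold change was 0.10 in fibroblasts, -0.26 in spleen, -0.13 in liver and -0.12 in brain. Leaving out 1 library moved it between -0.06 and 0.14 in fibroblasts, between -0.92 and 0.39 in spleen, between -0.60 and 0.05 in liver and between -0.27 and -0.02 in brain. Only the brain difference kept its sign when any of the libraries was left out. The liver difference also depended on the summary used. There the mean of the per-library medians, mutant minus control, was -0.25 for nuclear and 0.001 for mitochondrial members.

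**Figure D5:**
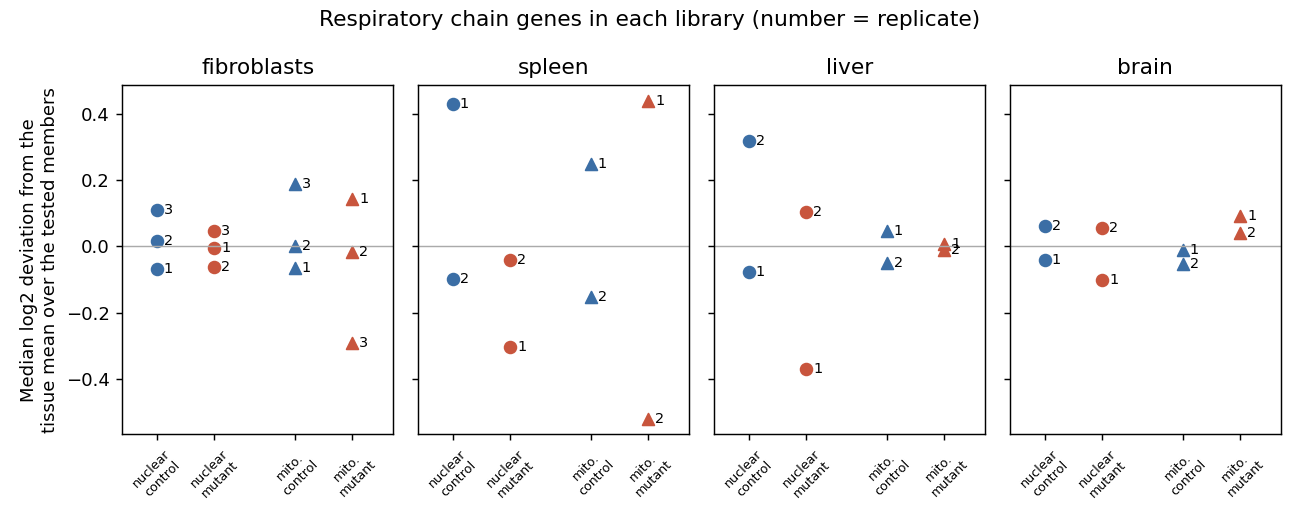
Median log2 deviation from the tissue mean of the tested nuclear members (circles) and mitochondrial members (triangles) in each control (blue) and mutant (red) library, numbered by replicate. In spleen the first mutant is the lowest for nuclear and the highest for mitochondrial members, and in liver the nuclear values spread from -0.37 to 0.32 while the mitochondrial ones stay within 0.05 of 0.

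In brain, 4 of the 7 tested mitochondrial genes had both mutants above both controls (57.1%, against 13.8% of all genes). In 1 both lay below (14.3%, against 16.3%). mt-Nd5, a proton-pumping subunit of complex I, was at 332 and 383 in controls and 452 and 404 in mutants, a log2 fold change of 0.26 ± 0.12 (SE; limma, adjusted p = 1.00). mt-Nd2 was at 481 and 497 against 622 and 518, mt-Cytb at 693 and 681 against 791 and 732, and mt-Nd1 at 799 and 777 against 819 and 829. These genes share 1 polycistronic RNA and are not independent of each other. mt-Co1 was at 3636 and 3281 against 3195 and 3510, with overlap. In liver mt-Cytb (853 and 795 against 864 and 950) and mt-Co1 (6163 and 6244 against 6477 and 6918) lay higher and mt-Nd2 (599 and 612 against 538 and 577) lower. That is 28.6% of the 7 tested higher, against 23.5% of all genes, and 14.3% lower, against 13.1%. These liver shares were near those of all genes.

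mt-Nd6, the only protein gene read from the opposite strand of the mitochondrial genome, was uneven between replicates. In liver its signal was 840 and 61.3 in controls and 456 and 34.0 in mutants, and in spleen 107 and 25.6 against 163 and 31.6. In both organs the libraries numbered 1 exceeded those numbered 2 whatever the genotype. The hepatocyte and skeletal muscle marker sums and the number of genes with reads also had this split in both organs. Their part was not tested. Its ratio to the reads of the adjoining mt-Nd5 was 0.819 and 0.0919 in liver controls and 0.577 and 0.0484 in mutants, while in fibroblasts it stayed between 0.1842 and 0.2997. In brain mt-Nd6 was at 28.8 and 25.9 against 14.3 and 24.9, a log2 fold change of -0.52 ± 0.23 (SE; limma, adjusted p = 1.00), most of which lay in the first mutant. The sources used here do not say whether strand was used in counting, so reads from mt-Nd6 and from the RNA opposite to it cannot be told apart.

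The 3 X-linked members lie on the chromosome that Xist silences. Ndufa1 and Ndufb11 are membrane-arm subunits of complex I and Cox7b is a subunit of cytochrome c oxidase. In brain all 3 had positive log2 fold changes, 0.18 ± 0.16, 0.26 ± 0.13 and 0.24 ± 0.15 (SE; limma, adjusted p = 1.00 for each). Ndufb11 was at 42.2 and 41.4 in controls and 53.9 and 46.4 in mutants, and Ndufa1 at 13.5 and 13.2 against 14.8 and 15.6, both without overlap. Cox7b was at 34.8 and 29.2 against 34.4 and 41.7, with overlap. Of all 611 X-linked genes tested in brain, 74.0% had a positive log2 fold change and 41.7% lay higher without overlap, against 13.8% of all genes, with a median of 0.14. Of 20 X-linked genes for other mitochondrial proteins, 16 were positive and 10 lay higher without overlap.

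In the other tissues the X-linked members lay on both sides of 0, except in liver, where all 3 were negative. Their log2 fold changes in liver were -0.52 for Ndufa1, -0.05 for Ndufb11 (70.0 and 69.8 against 67.6 and 67.2) and -0.24 for Cox7b (61.8 and 98.7 against 59.7 and 73.0), while the median of 504 X-linked genes was 0.10. In spleen they were -0.09, 0.06 and -0.29, against a median of 0.03 over 572 X-linked genes. In fibroblasts they were -0.11, 0.19 and -0.02, against 0.05 over 441. Xist signal in mutants was highest in liver, also relative to controls (178 to 257 against 594 to 730). It was next highest in spleen, but there against far higher controls (51.2 to 117 against 1121 to 1205). The part of Xist signal in these values was not tested.

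Other genes of mitochondrial function were described in the same fits, and limma called 0 of them in any tissue. In spleen 74 of 77 mitochondrial ribosome genes, 17 of 19 genes of the tricarboxylic acid cycle and pyruvate dehydrogenase and 35 of 41 further chain components and assembly factors were negative, with medians of -0.35, -0.34 and -0.28. Of 27 genes of mitochondrial transcription and genome maintenance, 23 were negative in spleen (median -0.18) and 8 in liver (median 0.12). In liver the first 3 lists had medians of -0.08, -0.04 and -0.08, closer to 0 than the -0.24 of the nuclear members. Of 14 nuclear regulators of mitochondrial genes in liver, 13 were positive with a median of 0.36, and 8 (57.1%, against 23.5% of all genes) lay higher without overlap. DESeq2 called 2 of these 14, against 1.4% of all genes tested in liver, while limma and edgeR called 0 of them. In brain and fibroblasts the medians of the mitochondrial ribosome, tricarboxylic acid cycle, further chain component and regulator lists lay between -0.05 and 0.01.

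Promoters of nuclear respiratory genes are known for sites of NRF1, ETS-family factors (NRF2) and YY1. RefSeq windows of 250 bases before to 50 after the start (GRCm38.p6) matched 76 of the 93 nuclear members, with 81 windows. The letters GCATGCG (NRF1 core) occurred on either strand in 13 of the 81 (16.0%), against 4.44% of windows of protein-coding genes. CCGGAAG (ETS core) occurred in 22.2% against 11.6%, AAGATGG (YY1 core) in 14.8% against 6.24%, and any of the 3 in 43.2% against 20.3%. A match is a description of the letters only. The 250 bases before the start are shown for 3 members that the comparisons turn on: Ndufaf4, opposite in spleen and liver (chr4:24897833-24898082, plus strand), Uqcr11, the largest difference in spleen (chr10:80406822-80407071, minus strand), and the X-linked Ndufb11 (chrX:20617620-20617869, minus strand). Capitals mark the NRF1 letters of Ndufaf4, which read the same motif on both strands, and the ETS letters of Uqcr11. The window of Uqcr11 also held NRF1 letters that run across the start, beyond the stretch shown, and the window of Ndufb11 held none of the 3.
Ndufaf4: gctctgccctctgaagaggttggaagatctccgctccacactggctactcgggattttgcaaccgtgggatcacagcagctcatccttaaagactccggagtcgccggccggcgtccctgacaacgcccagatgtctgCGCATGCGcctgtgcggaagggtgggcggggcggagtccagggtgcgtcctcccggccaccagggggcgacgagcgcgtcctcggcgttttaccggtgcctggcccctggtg
Uqcr11: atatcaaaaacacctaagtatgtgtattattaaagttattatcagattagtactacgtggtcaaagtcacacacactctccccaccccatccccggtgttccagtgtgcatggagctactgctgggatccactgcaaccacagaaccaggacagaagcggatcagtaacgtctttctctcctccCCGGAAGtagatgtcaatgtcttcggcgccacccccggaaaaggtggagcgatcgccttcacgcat
Ndufb11: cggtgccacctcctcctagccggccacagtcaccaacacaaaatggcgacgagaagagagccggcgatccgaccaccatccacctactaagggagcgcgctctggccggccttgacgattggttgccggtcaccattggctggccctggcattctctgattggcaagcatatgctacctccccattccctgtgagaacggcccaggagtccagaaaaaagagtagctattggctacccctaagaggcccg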

How the data were processed

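RNA was depleted of ribosomal RNA and sequenced as 50-base reads, per the labels' protocols. The authors deposited 1 table per tissue of normalised signal per gene. The submitters' processing notes name HTSeq 0.6.1, edgeR and the build GRCm38 without saying how each was used, and no source used here names the aligner. All signals were whole multiples of the value of 1 read, so reads were recovered (100% of values whole within 0.05 of a read). Symbols came from the GENCODE annotation of GRCm38 for 45229 of 46078 identifiers, and 849 did not match.

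Genes with a table mean signal of at least 1 were tested within each table by limma 3.58.1 (R 4.3.3, trend) on log2(signal + 0.5), two-sided, with Benjamini-Hochberg adjustment over all genes tested. Fold changes on this scale understate those of low genes. DESeq2 1.42.0 and edgeR 4.0.16 on the recovered reads, a pseudocount of 1, no filter, scaling to nuclear genes, a replicate block and leaving out each library were alternatives. The code was tested on simulated data. Members were named where they are mitochondrial, X-linked or have an isoform, were the most abundant of a complex, or had among the 5 smallest p or the 3 largest differences without overlap in a tissue. Members and lists were chosen with earlier results of these data known. Replicates of a group differed by more than counting noise, and none were merged. The series text calls the replicates biological, without saying which animals, litters or cultures they came from.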

Additional observations from a re-analysis of the deposited data

Results flagged for a closer look

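The following differences between tissues were singled out because every mutant library of 1 tissue lay above its controls and every mutant library of the other lay below. The difference itself was not tested in any of them. Of all genes tested, 18.3% in spleen, 23.5% in liver, 13.8% in brain and 2.07% in fibroblasts lay higher without overlap. In the same order, 21.9%, 13.1%, 16.3% and 1.65% lay lower. How many of all genes lay on opposite sides in a pair of tissues was not counted. Ndufaf4 had the widest gap, with a log2 fold change of 0.51 in liver and -0.65 in spleen, a difference of 1.16. Ndufa4 differed by 0.80 (0.19 in brain, -0.61 in spleen), Ndufv3 by 0.61 (0.18 in spleen, -0.43 in liver) and Ndufs7 by 0.56 (0.15 in fibroblasts, -0.41 in spleen). Between brain and liver, Ndufa1 differed by 0.69 (0.18 and -0.52), Ndufa3 by 0.51 (0.12 and -0.38), mt-Nd2 by 0.34 (0.21 and -0.12) and Ndufb11 by 0.31 (0.26 and -0.05). Ndufa1 also differed between brain and fibroblasts, by 0.28 (-0.11 in fibroblasts), and Atp5c1 between fibroblasts and brain by 0.24 (0.12 and -0.12).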

How the results depend on the processing

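The count of members called was 0 in every tissue under every alternative run. Depth, 2 libraries a group in the organs and the shared windows limit what can be read from single members. Members named for their differences that share windows include Cox7a2l (13.8%), Atp5g1 (11.1%) and Ndufb11 (9.55%). The median log2 fold change of the mitochondrial members was the value that moved most with the method: in liver it was -0.11, and -0.18 with DESeq2, -0.18 with edgeR and 0.048 with no filter, which also admits the nearly empty genes. In spleen it ranged from -0.10 to 0.11 over the alternatives that kept all libraries. The nuclear median stayed between -0.36 and -0.34 in spleen and between -0.31 and -0.22 in liver over the same alternatives. With libraries left out in turn, the mitochondrial median ranged from -0.17 to 0.0062 in fibroblasts, from -0.61 to 0.46 in spleen, from -0.11 to 0.16 in liver and from 0.044 to 0.16 in brain, and the nuclear minus mitochondrial difference from -0.92 to 0.39 in spleen, from -0.60 to 0.052 in liver and from -0.27 to -0.019 in brain; the cause was not tested. The nuclear median ranged from -0.62 (without the second control) to -0.08 (without the first control) in spleen, and from -0.52 (without the second mutant) to -0.03 (without the first mutant) in liver. Of the counts called, set medians and their differences under alternatives, 154 were unchanged or stayed within the spread of the replicates, and 14 did not. Of these 14, 11 were with a library left out and 1 each with DESeq2, edgeR and no filter. Of the values for single members under alternatives, 1194 stayed within the spread of the replicates and 8 did not. Of the latter, 4 were with DESeq2 and 4 with edgeR, where 110 each stayed within it. With a pseudocount of 1 and with scaling to nuclear genes, 114 each stayed within it. By construction, leaving out a library (518 values), the replicate block (114) and no filter (114) cannot move a single member beyond this spread. Those values therefore say nothing about stability.

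With the replicate block the number of members called was still 0 in every tissue. Each number held 1 control and 1 mutant library, so the block can change p but not a fold change. The nuclear median was thus the same by construction, -0.02, -0.36, -0.24 and -0.04 in fibroblasts, spleen, liver and brain. In liver 24 nuclear members and 1 mitochondrial member were under an unadjusted p of 0.05 with the block, against 19% of all genes tested, and 0 without it, against 6.67%, with a smallest adjusted p of 0.0866. Libraries of the same number shared deviations unevenly (correlations of -0.08, 0.43 and 0.02 in fibroblasts, -0.03 in spleen, 0.58 in liver and 0.08 in brain), so the numbers were not taken to pair the samples.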
